A study of Mus musculus with 31 samples.

Results

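The 26S proteasome degrades proteins that carry ubiquitin, and its subunits and the ubiquitin-conjugating enzymes are the subject here. Members were the spots whose gene symbol begins with Psma, Psmb, Psmc or Psmd and a number, or with Ube2 and a letter. The inducible catalytic subunits Psmb8, Psmb9 and Psmb10 were left out of the sets. The rule took 60 of 10600 named genes, on 64 of 13872 spots. These are 35 proteasome genes on 36 spots and 25 genes of ubiquitin-conjugating enzymes (E2s) on 28 spots, and both sets are described apart. By its letters the rule also caught Psmc3ip, a recombination protein, Psmb5-ps, a pseudogene, and Ube2cbp, an E2-binding protein, none of which is a subunit or an E2. The proteasome set also counts Psmd9 and Psmd10, chaperones that help assemble the proteasome. It used no measured value.

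Macrophages were grown for 8 days in medium with L929-cell supernatant, a source of CSF-1, from marrow of mice aged 6 to 8 weeks, either wild-type C57BL/6J or MyD88-/-. MyD88 is an adaptor protein that couples Toll-like receptors, sensors of microbial molecules, to NF-kB. The cells of both genotypes received 10 ng/mL re-purified E. coli O111 LPS, live E. coli at 1 bacterium per macrophage, or medium alone (mock) for 2 hours. Each spotted array paired stimulated RNA with mock RNA of a mouse, 31 arrays in all, with 4 mice for every pairing of genotype with stimulus (4 groups). The labels do not give the deleted part of Myd88.

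A barrel of alpha and beta rings, the 20S core, does the cutting, and the beta subunits Psmb5, Psmb6 and Psmb7 carry the active sites. The 19S cap on its end recognises ubiquitin chains, removes them with Psmd14, and unfolds the substrate with a ring of ATPases, Psmc1 to Psmc6. An E2 takes ubiquitin, or a relative such as NEDD8 or ISG15, from an E1 enzyme and passes it on with an E3 ligase. In Toll-like receptor signalling, Ube2n with Ube2v1 builds the lysine-63 chains of Traf6, other E2s mark IkB for the proteasome, and immunoproteasome subunits replace the standard active sites in cells that saw interferon.

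Values are log2 ratios of an array's channels, read as stimulated over mock. This direction is likely from the titles and is not stated in the labels. A ratio gives no level, so neither the amount of a transcript nor the identity of the cells can be read from it, and fewer cells of a type and less RNA per cell cannot be told apart. Arrays held 5564 to 10497 values each, the fewest on the dye-swapped array of wild-type E. coli mouse 1. The number of mice, 4 in a group, limits the precision. MyD88-/- LPS mouse 4 had 1 array, the other mice an array in each dye orientation. The Myd88 spot gave mouse values of 1.14 to 1.75 for LPS and 1.27 to 1.89 for E. coli in wild-type mice. In MyD88-/- mice it gave 0.87 to 4.70 for LPS, the highest in mouse 4, and 0.74 to 1.70 for E. coli. A ratio from this spot does not check the deletion, since the spot's place relative to the deleted part is not known. Of 9 macrophage marker genes on the array 7 were tested, and of these Fcgr1 fell in 3 responses and Cd68 in wild-type LPS. T cell, B cell, neutrophil, dendritic cell, erythroid and stromal lists had 1, 3, 3, 2, 1 and 0 genes tested, among which Cd79a fell in MyD88-/- LPS (-1.05) and 1 of 2 Zbtb46 spots rose in wild-type LPS (0.70). Of 13 proliferation genes tested, Mki67 rose in MyD88-/- LPS (0.73) and MyD88-/- E. coli (0.66), and no other was called there. The 13 genes had medians of 0.078 and -0.11 in these groups, and ranged from -0.22 to 0.73 and from -0.55 to 0.66. The part of these genes in the results below was not tested.

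A spot was tested with a value from 3 or more of 4 mice in every group, which 7325 spots did, among them 28 of 36 proteasome spots and 24 of 28 E2 spots. A call is an adjusted p under 0.05 in limma, adjusted by Benjamini and Hochberg over the 7325 spots. Where 4 values stand in a row without group names, they follow the order wild-type LPS, MyD88-/- LPS, and then E. coli in wild-type and in MyD88-/- mice. A fitted value is given ± its standard error, and an interval is the 95% limma interval. The labels number the mice 1 to 4 within each genotype for both stimuli, so the LPS and E. coli values of a genotype may come from the same mice and may share mock RNA. Of the 19 calls among members 13 were lost in a fit on the group alone, which takes the spread from that group's mice. Why they were lost was not tested. None of the 19 changed sign in any alternative.

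Most proteasome subunits stayed near their mock level. In wild-type LPS 1 of 28 proteasome spots rose and 0 fell, where 17.0% of all spots were called (7.99% higher and 9.04% lower). In MyD88-/- LPS 1 rose and 0 fell, where 9.98% of all spots were called (5.28% higher and 4.70% lower). In wild-type E. coli 2 rose and 1 fell, where 21.2% of all spots were called (9.43% higher and 11.8% lower). In MyD88-/- E. coli 3 rose and 1 fell, where 10.8% of all spots were called (6.35% higher and 4.42% lower). The median log2 ratio of the set was 0.02, 0.022, -0.0019 and -0.0068 in these groups, against -0.048, -0.051, -0.057 and -0.049 over all spots. Sizes were small as well. The median absolute log2 ratio was 0.0956, 0.145, 0.0896 and 0.122, against 0.279, 0.232, 0.301 and 0.229 over all spots.

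**Figure D1:**
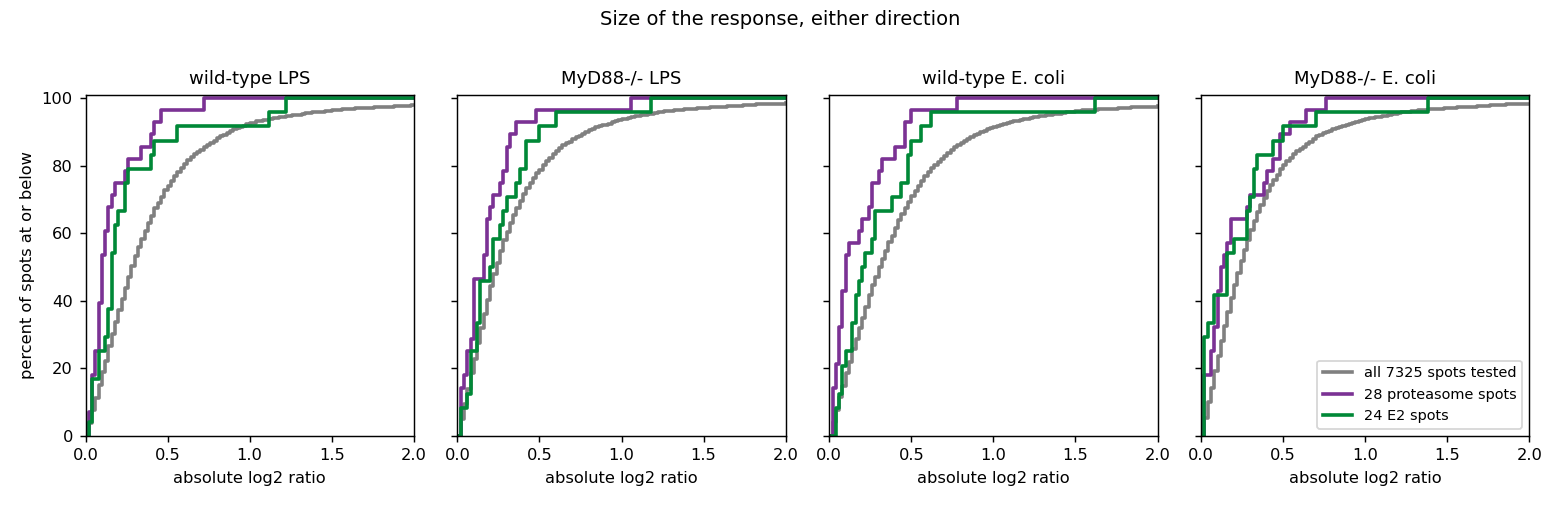
Percent of spots (vertical axis) whose absolute log2 ratio is at or below the value on the horizontal axis, in each of the 4 groups, for all 7325 spots tested (grey), the 28 proteasome spots (purple) and the 24 E2 spots (green). The purple curve reaches its middle at 0.0956, 0.145, 0.0896 and 0.122, left of the grey curve at 0.279, 0.232, 0.301 and 0.229.

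Most intervals were narrow enough to bound the change. The interval lay within 2-fold of mock for 26 of 28 proteasome spots in wild-type LPS, where 68.1% of all spots did, and for 27 in MyD88-/- LPS, where 71.0% did. For E. coli it did so for 27 in wild-type mice (66.0% of all spots) and 26 in MyD88-/- mice (72.6%). It did so in all 4 groups for 26 of 28, against 52.4% of all spots. The exceptions were Psmd10 and Psmc3ip. The fitted value was within 0.5 of 0 in all 4 groups for 25 of 28, against 51.8% of all spots. No call was made in any of the 4 groups for 23 of 28, against 71.6% of all spots. Per mouse, the median of the set ran from -0.14 to 0.14 for LPS and from -0.19 to 0.20 for E. coli in wild-type mice. In MyD88-/- mice it ran from -0.006 to 0.14 for LPS and from -0.051 to 0.10 for E. coli. These ranges span 0 in every group and overlap each other.

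Psmd10 (gankyrin), an ankyrin-repeat chaperone that helps assemble the 19S base and is absent from the finished proteasome, rose in all 4 groups. The wild-type LPS mice gave 0.61, 0.76, 0.73 and 0.72, and the MyD88-/- LPS mice 0.59, 0.56, 1.13 and 1.90. The wild-type E. coli mice gave 1.37, 0.46, 0.59 and 0.66, and the MyD88-/- E. coli mice 0.80, 0.49, 0.89 and 0.82. All 16 ratios were above 0 and the 4 groups overlapped, and all 16 unswapped and 15 swapped arrays were above 0. The highest ratio, 1.90, came from the mouse with 1 array, and the next, 1.37, from the mouse whose swapped array held the fewest values. Fitted values were 0.71 ± 0.19 (adjusted p = 0.0185, limma), 1.04 ± 0.19 (0.00183), 0.77 ± 0.19 (0.00946) and 0.75 ± 0.19 (0.0183) in the same order, a rise of 1.63 to 2.06-fold. Without MyD88-/- LPS mouse 4 its value there was 0.76 (adjusted p = 0.0123). The wild-type LPS call was lost without mouse 2, 3 or 4 (adjusted p up to 0.0687) and on unswapped arrays alone (0.61, 0.0509). The wild-type E. coli call was lost without mouse 1 (0.57, adjusted p = 0.0732), and the MyD88-/- E. coli call without mouse 1, 3 or 4 (adjusted p up to 0.0845).

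The promoter window of Psmd10 is shown because it is the proteasome member that rose in every group. It is the RefSeq window from 250 bases before to 50 bases after the gene's start, build GRCm38.p6, chrX:140956662-140956961, minus strand, written 5′ to 3′. Capitals would mark a match to 1 of 3 motifs searched on both strands: the antioxidant response element core (TGACNNNGC), through which oxidative stress raises proteasome genes, the interferon-stimulated response element core (GAAANNGAAA) and an NF-kB site (GGGNNTTNCC).
Psmd10: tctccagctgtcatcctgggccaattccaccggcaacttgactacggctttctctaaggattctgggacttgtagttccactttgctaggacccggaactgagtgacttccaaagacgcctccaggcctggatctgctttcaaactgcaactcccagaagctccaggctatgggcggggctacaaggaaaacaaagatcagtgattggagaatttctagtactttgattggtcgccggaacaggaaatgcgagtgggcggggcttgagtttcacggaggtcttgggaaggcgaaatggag
The window held no match to these letters. Of all 32851 promoter windows 12.4%, 3.44% and 4.79% held a match to the respective motif. Among the 29 windows of 27 proteasome genes, 5 held the first, 3 the second and 0 the third. A match is a string of letters and says nothing of binding.

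**Figure D2:**
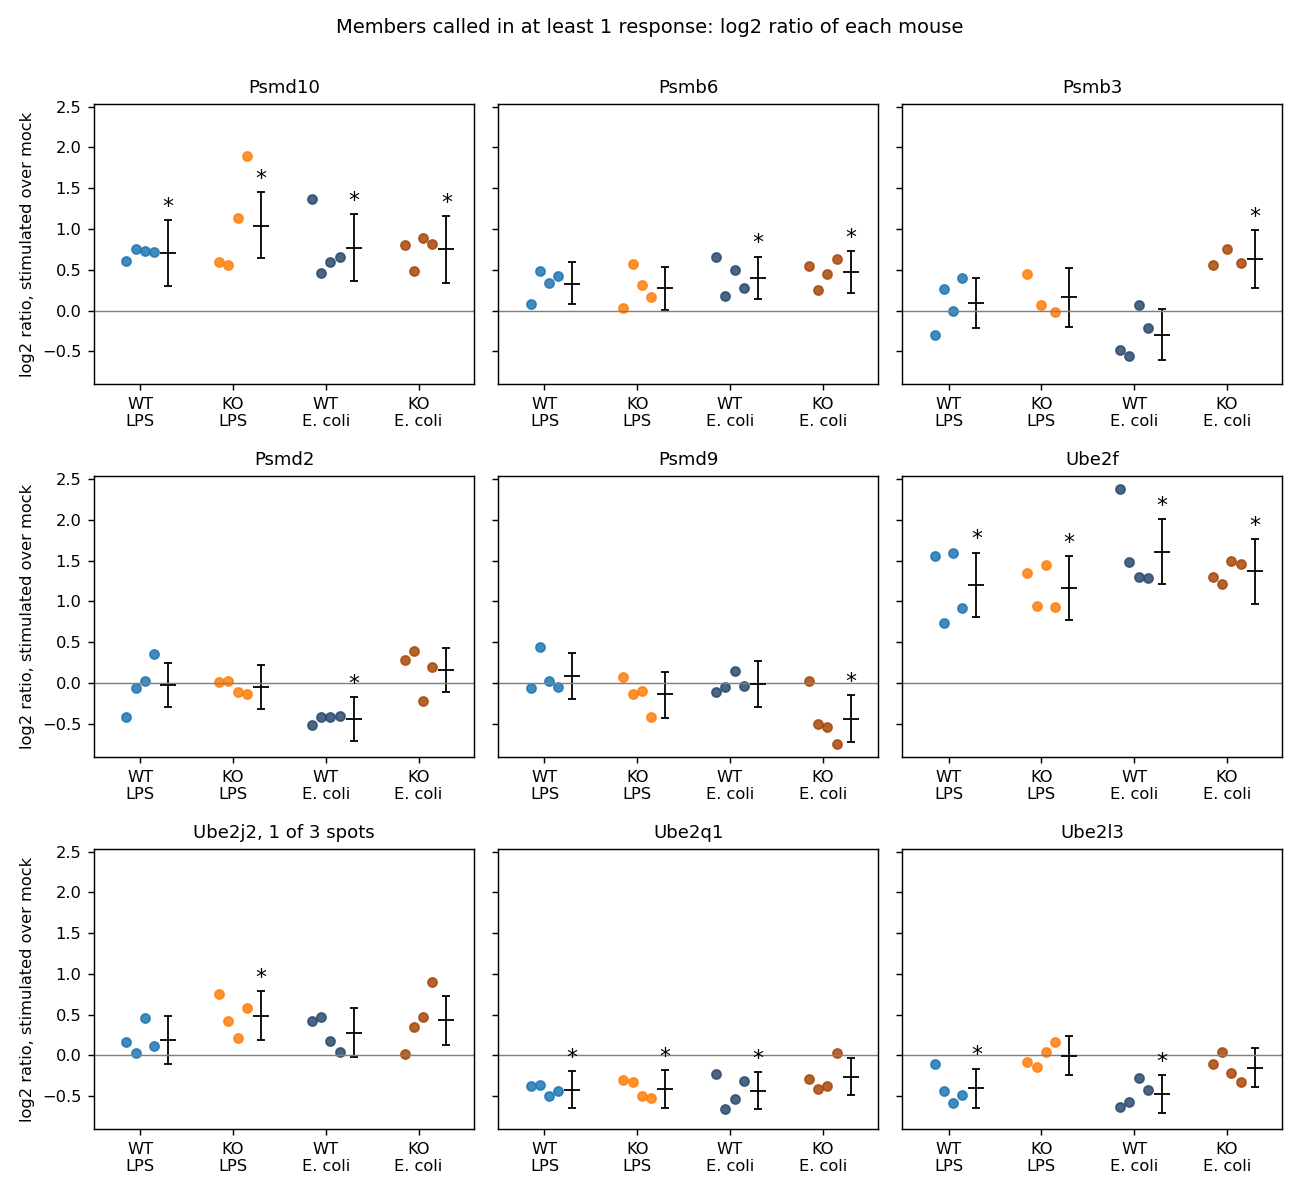
Log2 ratio of stimulated over mock (vertical axis) for the 9 members called in at least 1 group, by genotype and stimulus (WT wild-type, KO MyD88-/-). Points are mice, black bars the fitted value with its 95% limma interval, and stars an adjusted p under 0.05. Psmd10, Psmb6, Ube2f and the Ube2j2 spot shown lie above 0 in all 16 ratios, and Ube2q1 in 1 of 16. Of all spots 5.22% had every measured mouse ratio above 0.

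Among the catalytic subunits, Psmb6, which carries the caspase-like site, rose in both E. coli groups. For E. coli, wild-type mice gave 0.65, 0.18, 0.50 and 0.27 and MyD88-/- mice 0.55, 0.25, 0.45 and 0.63. The LPS values were 0.085, 0.49, 0.34 and 0.42 in wild-type mice and 0.027, 0.57, 0.31 and 0.17 in MyD88-/- mice. All 16 ratios were above 0, and the LPS and E. coli values overlapped. Over all spots, 5.22% had every measured mouse ratio above 0. Psmb6 was fitted at 0.40 ± 0.12 in wild-type E. coli (adjusted p = 0.0281, limma) and 0.47 ± 0.12 in MyD88-/- E. coli (0.019). It was not called in wild-type LPS (0.33 ± 0.12, 0.0744) or MyD88-/- LPS (0.27 ± 0.12, 0.203). Both calls were lost on the unswapped arrays alone (0.31 and 0.33, adjusted p = 0.127 and 0.162). They were also lost without wild-type E. coli mouse 1 or 3 (adjusted p up to 0.137) and without MyD88-/- E. coli mouse 1, 3 or 4 (adjusted p up to 0.0872). Centring the arrays brought wild-type LPS past the threshold (0.36, adjusted p = 0.0392).

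Psmb7, which carries the trypsin-like site, had fitted values of -0.037, 0.093, 0.044 and -0.0036 with a standard error of 0.11 and was not called. Its widest interval bound was 0.32, so a change past 2-fold was outside all 4 intervals. Psmb5, the chymotrypsin-like subunit, had too few values to be tested, and the 9 mouse values it had ran from -1.40 to 0.52. The spot named Psmb5-ps was not called in any group (-0.25, 0.31, 0.23 and -0.017). Psmb1 and Psmb4, beta subunits without an active site, were not called either, with fitted values between -0.28 and -0.0068.

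Psmb3, another beta subunit without an active site, was called in MyD88-/- E. coli and in no other group. The 3 mice measured there gave 0.56, 0.76 and 0.58. The 4 wild-type E. coli mice were all lower, at -0.49, -0.56, 0.073 and -0.22. Mice were fully apart in this comparison in 9.08% of all spots. Single arrays of Psmb3 were not apart. In wild-type E. coli 4 unswapped arrays averaged -0.53, and 2 swapped arrays ran from -0.76 to 0.90. In MyD88-/- E. coli 3 unswapped arrays ran from 0.34 to 0.76 and 2 swapped arrays from 0.73 to 0.82. Some mouse values in both groups therefore rest on 1 dye orientation. The LPS mice overlapped wild-type E. coli, at -0.30 to 0.40 in wild-type and -0.022 to 0.45 in 3 MyD88-/- mice. Psmb3 rose in MyD88-/- E. coli (0.63 ± 0.17, adjusted p = 0.0265, limma) and was not called in wild-type E. coli (-0.30 ± 0.14, 0.17). The genotype difference for E. coli was 0.93 ± 0.22 and missed the threshold (interval 0.45 to 1.41, adjusted p = 0.0779). The call in MyD88-/- E. coli was lost without mouse 1, 3 or 4 (adjusted p up to 0.144).

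Of the alpha ring, which gates the barrel, 5 of 8 genes were tested and 0 were called in any group, while at an unadjusted p under 0.05 Psma6 passed in 3 groups and Psma5 in 1. Of all spots 29.2%, 21.9%, 32.9% and 22.2% passed unadjusted in the 4 groups. Psma6 came closest, with mouse values of 0.87, 0.21, 0.56 and 0.32 in wild-type E. coli and a fit of 0.49 ± 0.17 (adjusted p = 0.0534, limma). Its other fits were 0.40 in wild-type LPS, 0.36 in MyD88-/- LPS and 0.40 in MyD88-/- E. coli, and 15 of 16 ratios were above 0. Psma5 followed at 0.22, 0.26, 0.44 and 0.36. On unswapped arrays alone Psma5 was called in wild-type E. coli (0.73, adjusted p = 0.0124). Psma1, Psma3 and Psma4 lay between -0.15 and 0.20 in every group. The Psma6 value in wild-type E. coli passed the threshold in 5 of 11 alternatives that keep all mice, centring among them (0.51, adjusted p = 0.0412), and without wild-type LPS mouse 3 or 4 or MyD88-/- E. coli mouse 4.

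The ATPase ring was flat. Of 6 genes 5 were tested, Psmc1 to Psmc5, and 0 were called at an adjusted or an unadjusted p under 0.05. Their 20 fitted values lay between -0.16 and 0.17, and every interval lay within 2-fold of mock. Single mice varied more, most in Psmc4, where the wild-type LPS mice gave -0.46, -0.25, 0.15 and 1.06. In Psmc3, MyD88-/- LPS mouse 2 gave 0.51 and the other 3 mice -0.15 to -0.077. Psmc6 had too few values to be tested.

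Of the Psmd genes, which encode the other cap subunits and the chaperones Psmd9 and Psmd10, 11 of 12 were tested. Besides Psmd10, 2 were called. Psmd2, the scaffold that docks ubiquitin shuttles and Usp14, fell in wild-type E. coli, where the mice gave -0.52, -0.42, -0.42 and -0.41. The MyD88-/- E. coli mice gave 0.28, 0.39, -0.22 and 0.19, all above the wild-type mice. The LPS values spread around 0, at -0.42, -0.063, 0.024 and 0.36 in wild-type mice and 0.015, 0.02, -0.11 and -0.14 in MyD88-/- mice. Psmd2 was fitted at -0.44 ± 0.13 in wild-type E. coli (adjusted p = 0.0204, limma), and leaving out any of these 4 mice lost the call (adjusted p up to 0.0737). The genotype difference for E. coli, 0.60 ± 0.18 with an interval of 0.22 to 0.98, was not called (adjusted p = 0.141). It was called in the fit on single arrays with a dye term (0.60, adjusted p = 0.0307). In wild-type E. coli all 8 single arrays were below 0, with means of -0.57 on unswapped and -0.31 on swapped arrays. In MyD88-/- E. coli the means were -0.059 on unswapped and 0.38 on swapped arrays. Psmd2 differed with dye orientation, since over the 4 groups 2 of 16 unswapped but 8 of 15 swapped arrays were above 0.

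Psmd9, a second assembly chaperone of the base, was called lower in MyD88-/- E. coli, where 3 mice gave -0.50, -0.54 and -0.75 and mouse 1 gave 0.029. The fit was -0.44 ± 0.13 (adjusted p = 0.0475, limma), just inside the threshold. The call was lost in 13 of 16 fits that left out a mouse and in 7 of 11 other alternatives, with adjusted p up to 0.24.

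Psmd14, the deubiquitinase of the cap, was not called, though its 2 MyD88-/- fits (0.47 and 0.48, adjusted p = 0.19 and 0.176) were above the wild-type fits (0.12 and 0.17). The genotype differences were 0.35 ± 0.29 and 0.30 ± 0.29, smaller than the spread allows to be told from 0. On unswapped arrays alone Psmd14 was called in MyD88-/- LPS (0.72, adjusted p = 0.0173). Psmd4, a ubiquitin receptor, lay between -0.13 and 0.19 and was not called. Psmd1, Psmd7 and Psmd8 lay between -0.094 and 0.076, and Psmd3, Psmd6 and Psmd13 between -0.45 and 0.26, and none was called. Psmc3ip, outside the complex, had fits of -0.40, -0.094, -0.25 and -0.54 with standard errors of 0.29 to 0.33.

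**Figure D3:**
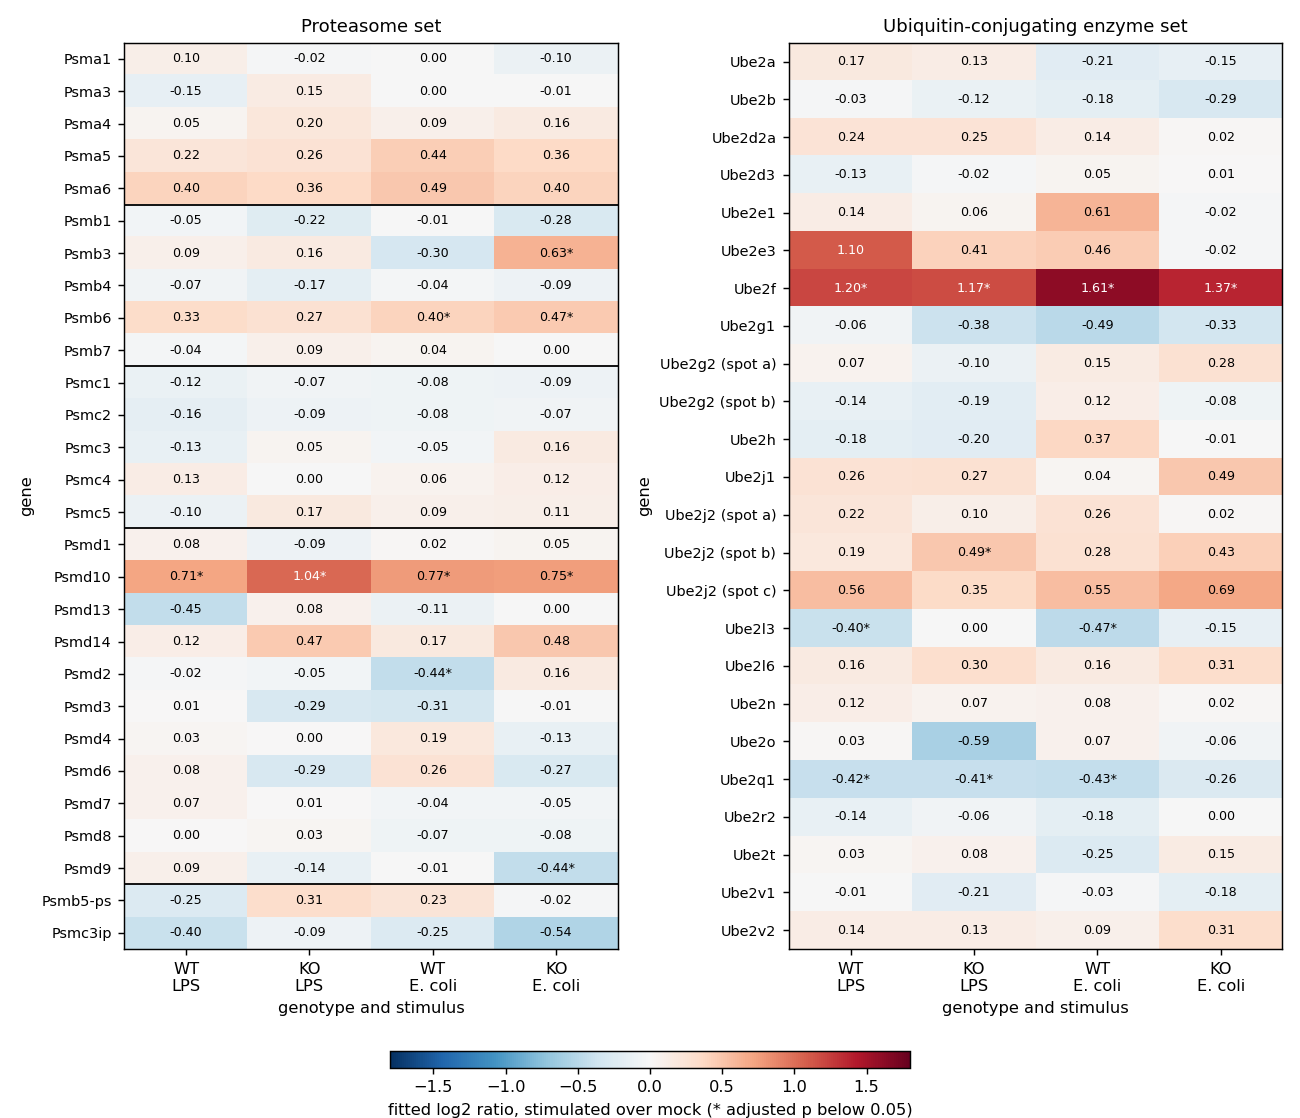
Fitted log2 ratio of stimulated over mock for the 28 proteasome spots (left) and the 24 E2 spots (right), by genotype and stimulus (WT wild-type, KO MyD88-/-). Proteasome rows run from alpha ring, beta ring and ATPases to the Psmd genes, with the chaperones Psmd9 and Psmd10 among them. Psmb5-ps and Psmc3ip, outside the complex, come last. Colour and number give the value and a star an adjusted p under 0.05. Psmd10 and Ube2f are starred in every column, while the ATPases lie between -0.16 and 0.17.

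The 8 proteasome spots below the testing limit were Psma2, Psma7, Psma8, Psmb2, Psmb5, Psmc6, Psmd12 and the second Psmb1 spot. Their mouse values scattered widely, for example from -1.90 to 1.57 for Psma2, from -3.24 to 2.07 for Psma8 and from -1.76 to 1.89 for Psmd12. No comparison was made on them.

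In the E2 set 1 member, Ube2f, had a fitted rise of more than 2-fold in every group, though some LPS mice were under 2-fold. In wild-type LPS 1 of 24 E2 spots rose and 2 fell, and in wild-type E. coli likewise 1 rose and 2 fell. In MyD88-/- LPS 2 rose and 1 fell, and in MyD88-/- E. coli 1 rose and 0 fell. The percentages over all spots are those given above, 17.0%, 9.98%, 21.2% and 10.8%. Median log2 ratios of the set were 0.092, 0.061, 0.084 and 0.0065. Median absolute values were 0.151, 0.195, 0.197 and 0.15. The interval stayed within 2-fold of mock for 20, 19, 18 and 21 of 24 spots, in all 4 groups for 18 (52.4% of all spots), and 20 of 24 were called in none (71.6% of all spots).

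Ube2f, an E2 that attaches NEDD8 and not ubiquitin, with cullin 5 as its known target, rose in all 4 groups. The wild-type LPS mice gave 1.56, 0.74, 1.60 and 0.92 and the MyD88-/- LPS mice 1.35, 0.94, 1.45 and 0.93. The wild-type E. coli mice gave 2.38, 1.48, 1.30 and 1.29 and the MyD88-/- E. coli mice 1.30, 1.21, 1.50 and 1.46. Every ratio was 0.74 or more, and the 4 groups overlapped. Fits were 1.20 ± 0.19 (adjusted p = 0.00028, limma), 1.17 ± 0.19 (0.000509), 1.61 ± 0.19 (1.47e-05) and 1.37 ± 0.19 (0.00011), a rise of 2.25 to 3.06-fold. Of single arrays 15 of 16 unswapped and 15 of 15 swapped were above 0. All 4 calls were kept in each of the 16 fits without a mouse and in 11 other alternatives, with adjusted p no higher than 0.0244. Of all spots 5.95% were called in all 4 groups, and 1 of 24 E2 spots and 1 of 28 proteasome spots were.

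The genotype difference of Ube2f was -0.036 ± 0.26 for LPS (interval -0.60 to 0.52) and -0.25 ± 0.26 for E. coli (-0.81 to 0.31), neither called. These intervals leave room for a difference of up to 0.81 on the log2 scale. Ube2f has 2 RefSeq windows, for 2 starts. The one shown, chr1:91250316-91250615, plus strand, holds the only match to the 3 motifs among the 4 genes whose windows were read, in capitals, the antioxidant response element core on the opposite strand, 27 bases after the start. The other window, chr1:91250054-91250353, held none.
Ube2f: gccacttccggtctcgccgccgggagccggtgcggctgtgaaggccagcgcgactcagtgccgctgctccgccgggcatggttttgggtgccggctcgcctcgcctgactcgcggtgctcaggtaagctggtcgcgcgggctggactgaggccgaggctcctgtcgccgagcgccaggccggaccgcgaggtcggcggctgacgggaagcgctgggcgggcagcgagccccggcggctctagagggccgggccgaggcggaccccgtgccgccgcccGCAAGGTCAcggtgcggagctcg
Of the 26 windows of 19 E2 genes 3 held this core, 11.5%, near the 12.4% of all windows, and 3 held the NF-kB letters and 0 the interferon letters.

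The genes that work with Ube2f were read from lists of related genes. Nedd8, the modifier itself, rose in wild-type LPS (0.65 ± 0.15, adjusted p = 0.0061, limma) and was at 0.43 ± 0.15 in wild-type E. coli (0.0512). In MyD88-/- mice Nedd8 was at -0.06 and -0.11 and was not called. The Nedd8 mice gave 0.61, 0.81, 0.63 and 0.57 in wild-type LPS and 0.012, -0.20, 0.14 and -0.19 in MyD88-/- LPS, without overlap (as in 6.68% of all spots), but the difference of -0.71 ± 0.21 was not called (adjusted p = 0.26). On unswapped arrays alone the Nedd8 call was lost (0.46, adjusted p = 0.0529). Uba3, the catalytic subunit of the NEDD8 E1, had fits of 0.57, 0.39, 0.55 and 0.51 and was not called (lowest adjusted p 0.0911). Ube2m, the other NEDD8 E2, was not analysed here.

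Ube2q1, an E2 with an RWD domain whose targets are little known, fell in 3 groups. Mouse values were -0.37, -0.36, -0.50 and -0.44 in wild-type LPS and -0.30, -0.32, -0.50 and -0.52 in MyD88-/- LPS. For E. coli they were -0.23, -0.66, -0.53 and -0.31 in wild-type mice and -0.29, -0.41, -0.38 and 0.027 in MyD88-/- mice. So 15 of 16 ratios were below 0, and of single arrays 0 of 15 unswapped and 1 of 15 swapped were above 0. Fits were -0.42 ± 0.11 (adjusted p = 0.0141, limma), -0.41 ± 0.11 (0.0226), -0.43 ± 0.11 (0.00923) and -0.26 ± 0.11 (0.154). The fall was called in both wild-type groups and in MyD88-/- LPS, and the genotype difference for E. coli was 0.17 ± 0.15 (adjusted p = 0.675). Calls were lost without wild-type LPS mouse 3 or 4 (adjusted p up to 0.0596), MyD88-/- LPS mouse 1, 3 or 4 (up to 0.112) or wild-type E. coli mouse 2 (0.0578). On unswapped arrays MyD88-/- LPS lost the call (-0.33, adjusted p = 0.0573) and MyD88-/- E. coli gained it (-0.41, adjusted p = 0.0197).

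Ube2l3 (UbcH7), which serves HECT and RBR ligases such as the linear-chain complex LUBAC, fell in both wild-type groups. Mouse values were -0.10, -0.43, -0.58 and -0.49 in wild-type LPS and -0.63, -0.57, -0.27 and -0.42 in wild-type E. coli. In MyD88-/- mice they were -0.076, -0.14, 0.045 and 0.16 for LPS and -0.11, 0.046, -0.21 and -0.33 for E. coli, overlapping the wild-type values. Wild-type fits were -0.40 ± 0.11 (adjusted p = 0.0217, limma) and -0.47 ± 0.11 (0.00661), and MyD88-/- fits -0.0015 ± 0.11 (0.997) and -0.15 ± 0.11 (0.487). The fall was called in wild-type mice and not in MyD88-/- mice, but the difference itself was not called. It was 0.40 ± 0.16 for LPS (interval 0.061 to 0.73, adjusted p = 0.489) and 0.32 ± 0.16 for E. coli (-0.012 to 0.66, 0.396). The wild-type LPS call was lost without mouse 2, 3 or 4 (adjusted p up to 0.107) and after scaling the arrays (-0.32, 0.0533).

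The windows of the 2 E2s that fell are shown beside those of the members that rose, Ube2q1 at chr3:89773359-89773658, plus strand, and Ube2l3 at chr16:17201443-17201742, minus strand.
Ube2q1: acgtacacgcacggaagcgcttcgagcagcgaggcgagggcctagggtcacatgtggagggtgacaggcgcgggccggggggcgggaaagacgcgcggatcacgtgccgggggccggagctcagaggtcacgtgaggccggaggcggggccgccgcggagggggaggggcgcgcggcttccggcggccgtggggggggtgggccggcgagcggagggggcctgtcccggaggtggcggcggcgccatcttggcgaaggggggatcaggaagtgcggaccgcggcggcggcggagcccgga
Ube2l3: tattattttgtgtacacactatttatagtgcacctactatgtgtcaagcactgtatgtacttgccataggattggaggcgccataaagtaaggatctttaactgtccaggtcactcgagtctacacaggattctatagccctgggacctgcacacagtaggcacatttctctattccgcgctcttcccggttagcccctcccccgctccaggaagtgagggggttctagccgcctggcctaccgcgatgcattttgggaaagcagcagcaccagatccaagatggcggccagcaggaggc
Neither held any of the 3 motifs. Their GC content was 77.3% and 52%, against 52.3% for Psmd10, 76% for the Ube2f window shown and a median of 52.7% over all windows.

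Ube2j2, a membrane-anchored E2 of the endoplasmic reticulum, had 3 tested spots, of which 1 was called. That one was called higher in MyD88-/- LPS, with mice at 0.75, 0.42, 0.22 and 0.58 and a fit of 0.49 ± 0.14 (adjusted p = 0.0351, limma). Its other groups were 0.19, 0.28 and 0.43, not called, and all 16 ratios were above 0. This spot differed with dye orientation, since 16 of 16 unswapped but 8 of 15 swapped arrays were above 0. In MyD88-/- LPS the unswapped arrays averaged 0.69 and the swapped arrays 0.21. On unswapped arrays alone it was also called in the other 3 groups (0.38, 0.50 and 0.58, adjusted p from 0.00639 to 0.0452). The second spot had fits of 0.22, 0.10, 0.26 and 0.019 and the third 0.56, 0.35, 0.55 and 0.69 with standard errors of 0.34 to 0.39, and neither was called. The call of the first spot was lost without MyD88-/- LPS mouse 1, 2 or 4 (adjusted p up to 0.189).

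The E2s of Toll-like receptor signalling were called in no group, apart from Ube2l3. Ube2n, which builds lysine-63 chains, had fits of 0.12, 0.066, 0.078 and 0.019 with a standard error of 0.13, and its partner Ube2v1 fits of -0.0079, -0.21, -0.026 and -0.18. Neither was called, and all 8 intervals lay within 2-fold of mock. Ube2v2, the alternative partner, was measured too loosely to judge (standard errors 0.53 to 0.61). Ube2d2a and Ube2d3, broad-range E2s used on IkB, lay between -0.13 and 0.25. Ube2r2, which works with SCF ligases, lay between -0.18 and -0.00069.

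Ube2l6, the E2 for ISG15, was not called, at 0.16, 0.30, 0.16 and 0.31 with a standard error of 0.13. All 8 MyD88-/- ratios of Ube2l6 were above 0 (0.13 to 0.42), and wild-type ratios ran from -0.12 to 0.57. Ube2t, an E2 of DNA crosslink repair, lay between -0.25 and 0.15 and was not called. Ube2c, an E2 of mitotic exit, and Ube2k had too few values to be tested.

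Some E2s came near the threshold. Ube2e3 stood at 1.10 ± 0.37 in wild-type LPS (adjusted p = 0.0568, limma), where mouse 3 gave 2.45 and the others 0.44, 0.67 and 0.85. Its relative Ube2e1 stood at 0.61 ± 0.23 in wild-type E. coli (0.0781), where mouse 1 gave 1.61 and the others 0.02 to 0.75. Ube2j1, another E2 of the endoplasmic reticulum, stood at 0.49 ± 0.15 in MyD88-/- E. coli (0.0573), with mice at 0.74, 0.32, 0.27 and 0.65. Each of these was under 0.5 in the other 3 groups. Ube2a, Ube2b, Ube2g1, Ube2g2, Ube2h and Ube2o were not called, and their fits lay between -0.59 and 0.37. On unswapped arrays alone Ube2g1 was called lower in wild-type LPS (-0.56, adjusted p = 0.0288) and wild-type E. coli (-0.56, 0.0246). Ube2w and Ube2cbp had too few values.

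No difference between genotypes was called in either set. For LPS 0 of 28 proteasome spots and 0 of 24 E2 spots were called, where 0.287% of all spots were, and at an unadjusted p under 0.05 0 and 1 passed (Ube2l3), against 8.91% of all spots. For E. coli again 0 and 0 were called, where 0.751% of all spots were, and 3 and 1 passed unadjusted (Psmb3, Psmd2, Psmd9 and Ube2t), against 13.3% of all spots. For LPS the wild-type and MyD88-/- mice were fully apart in 0 of 28 and 0 of 24 spots, against 6.68% of all spots. For E. coli they were apart in 2 of 28 (Psmb3 and Psmd2) and 0 of 24, against 9.08%. The interval of the difference lay within 2-fold for 23 of 28 and 20 of 24 spots for LPS and for 24 of 28 and 18 of 24 for E. coli, against 57.3% and 55.0% of all spots.

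**Figure D4:**
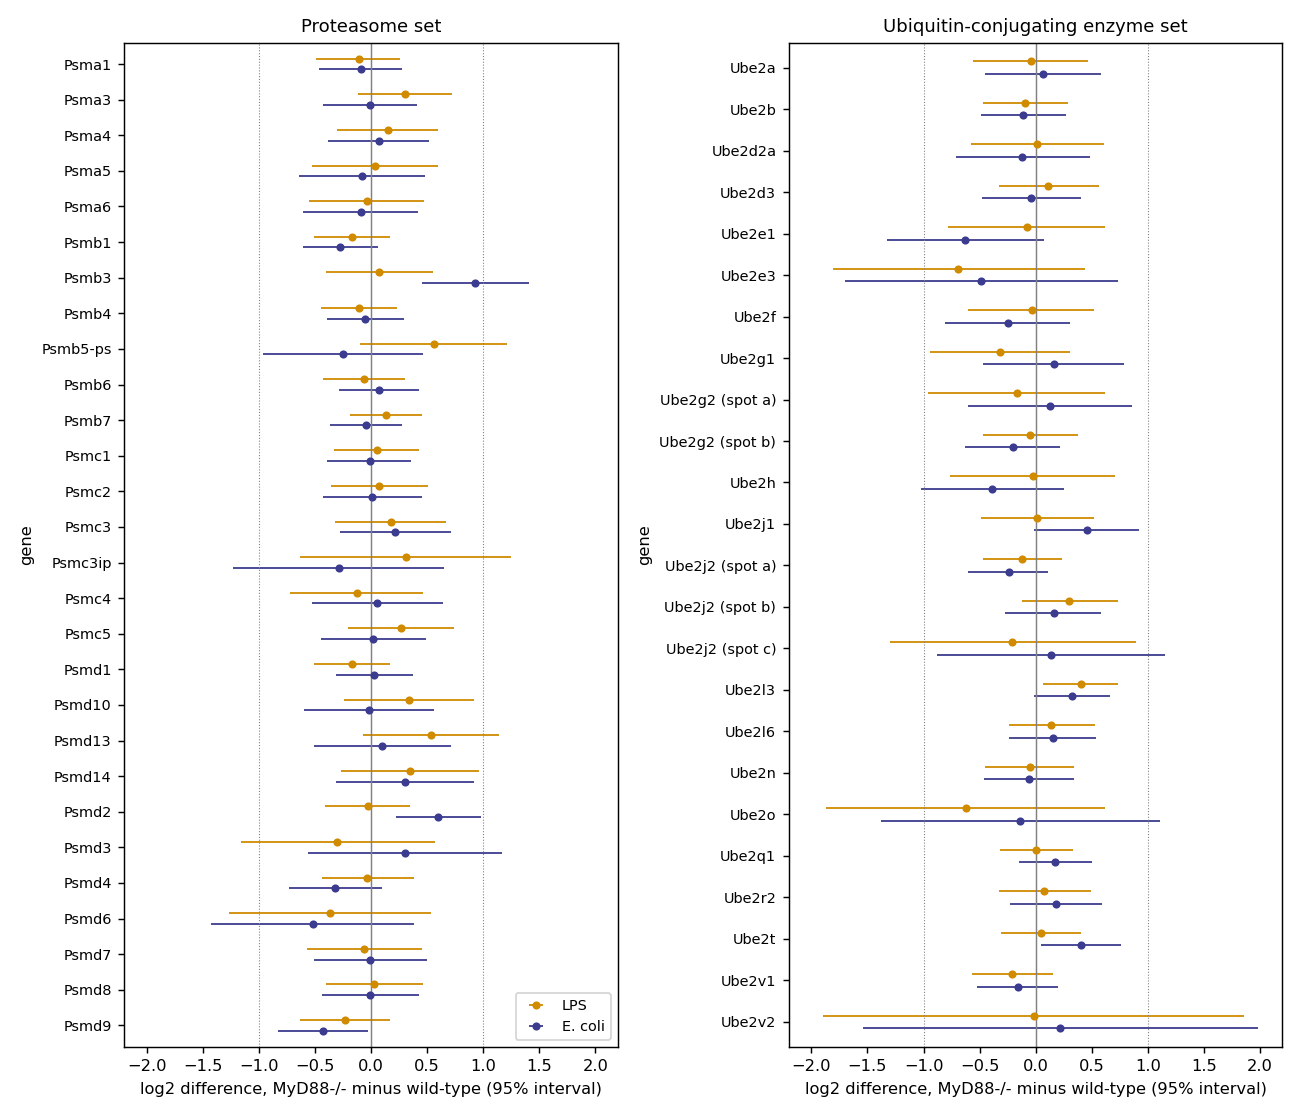
Log2 difference between genotypes, MyD88-/- minus wild-type (horizontal axis), with its 95% limma interval, for each proteasome spot (left) and E2 spot (right), for LPS (yellow) and E. coli (blue). Dotted lines mark 2-fold. The intervals of Psmb3 (0.93), Psmd2 (0.60) and Ube2t for E. coli and of Ube2l3 for LPS lie wholly above 0. That of Psmd9 for E. coli lies wholly below 0, and no difference was called.

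Differences between stimuli within a genotype were not called in either set, nor in any of the 7325 spots (0.00%). At an unadjusted p under 0.05 1 of 28 proteasome spots passed in wild-type mice, 0 in MyD88-/- mice, and 0 of 24 E2 spots in either, against 4.05% and 2.42% of all spots. Mouse values of the stimuli did not overlap in 1 of 28 proteasome spots in MyD88-/- mice (Psmb3), against 2.32% of all spots, and in 0 of 28 in wild-type mice, against 2.65%. The E2 set gave 0 of 24 in either genotype. The interval of the stimulus difference lay within 2-fold for 24 of 28 proteasome and 17 of 24 E2 spots in wild-type mice, against 61.0% of all spots. In MyD88-/- mice it did so for 26 and 19 spots, against 64.0%. The interaction of genotype and stimulus gave 0 calls among members and over all spots (0.00%), with 2 proteasome spots, Psmb3 (0.86) and Psmd2 (0.63), passing at an unadjusted p under 0.05, against 2.99% of all spots.

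Of the inducible counterparts of the catalytic subunits, Psmb9 and Psmb10 rose in 3 of 4 groups and Psmb8 in none. Their difference from the standard subunits was not tested. Psmb10, which replaces Psmb7 in the immunoproteasome, rose in MyD88-/- LPS (0.72 ± 0.17, adjusted p = 0.0102, limma), and with E. coli in wild-type mice (0.82 ± 0.17, 0.00236) as in MyD88-/- mice (0.97 ± 0.17, 0.00101). In wild-type LPS Psmb10 was at 0.38 ± 0.17 and was not called (0.144). Psmb9, which replaces Psmb6, rose in the same 3 groups, by 0.60, 0.41 and 0.71 ± 0.14 (0.00985, 0.045 and 0.0026), and was at -0.047 in wild-type LPS. Psmb8, which replaces Psmb5, was not called (0.012, 0.12, -0.092 and 0.39 ± 0.13). The genotype difference of Psmb9 for LPS was 0.65 ± 0.20 and not called (adjusted p = 0.282). In wild-type E. coli the Psmb9 call was lost in 10 of 16 fits without a mouse (adjusted p up to 0.225). In MyD88-/- LPS it was lost without mouse 4 (0.47, adjusted p = 0.084), and that of Psmb10 without mouse 2 (0.59, 0.0709).

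**Figure D5:**
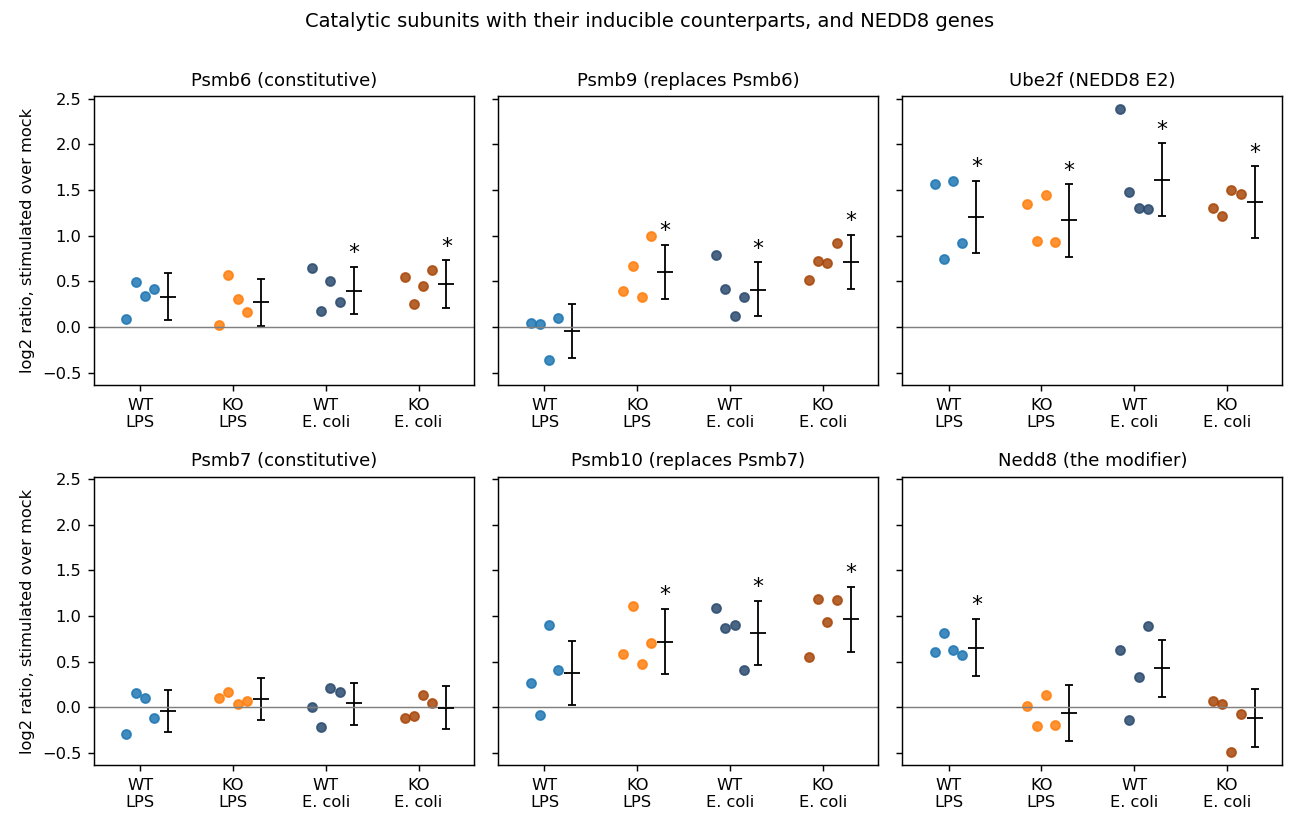
Log2 ratio of stimulated over mock (vertical axis) for Psmb6 and Psmb7 (left), their inducible counterparts Psmb9 and Psmb10 (middle), and Ube2f and Nedd8 (right), by genotype and stimulus (WT wild-type, KO MyD88-/-). Points are mice, black bars the fit with its 95% limma interval, and stars an adjusted p under 0.05. Psmb10 reaches 0.97 in MyD88-/- E. coli where Psmb7 is at -0.0036, while Psmb9 is at 0.71 and Psmb6 at 0.47. In wild-type LPS Psmb6 is the higher of its pair, at 0.33 with Psmb9 at -0.047. These differences were not tested.

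Other genes of the pathway were counted from lists in the same fits. Of 8 activators, inhibitors and assembly factors on the array 5 were tested, and 0 were called in any group, nor did any pass at an unadjusted p under 0.05. On unswapped arrays alone Psme3, a nuclear relative of PA28, was called in wild-type LPS (0.74 against 0.15, adjusted p = 0.0361) and wild-type E. coli (1.06 against 0.18, 0.0104). Psme1, a subunit of the interferon-inducible activator PA28, was at 0.11, 0.19, 0.18 and 0.37. Of 8 tested proteasome-bound and shuttle proteins 0 were called, with 1 passing unadjusted in wild-type LPS.

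Of 4 ubiquitin-like precursors tested, Sumo3 fell in wild-type LPS (-0.69 ± 0.10, adjusted p = 0.000136, limma) and wild-type E. coli (-0.67 ± 0.10, 0.00015). Sumo3 was at -0.19 and -0.083 in the MyD88-/- groups, and its genotype differences of 0.50 (adjusted p = 0.23) and 0.59 (0.0682) were not called. The latter passed the threshold in 3 alternatives (adjusted p from 0.0145 to 0.0424). Of 6 tested E1 and E2-like genes, Atg7, the E1 of autophagy, fell in wild-type LPS (-0.45, adjusted p = 0.0154) and wild-type E. coli (-0.39, 0.0272). Ufc1, the E2 of UFM1, fell in wild-type E. coli (-0.45, 0.0245). Both Atg7 calls were lost without some mice of their group (adjusted p up to 0.0937 and 0.0954), as was that of Ufc1 (up to 0.155). Of 2 tested ISG15-cycle genes, Usp18, which removes ISG15, rose in MyD88-/- E. coli (1.11 ± 0.33, adjusted p = 0.0396), a call lost in 6 of 16 fits without a mouse, among them the one without mouse 2 (0.62, 0.269). Isg15 and its E1 Uba7 had too few values.

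Some ligases and deubiquitinases of Toll-like receptor signalling gave larger ratios than any subunit or E2 above. Of 10 tested genes, counted by 1 spot each, 4 rose and 0 fell in each group. Over all spots 7.99%, 5.28%, 9.43% and 6.35% were called higher in the 4 groups. The list was chosen with earlier results of these data known. Tnfaip3 (A20), which trims chains to end NF-kB signalling, was fitted at 4.27 ± 0.48, 3.68 ± 0.48, 4.91 ± 0.48 and 3.23 ± 0.48 in the usual order (adjusted p from 2.65e-06 to 0.000254, limma). Birc3, Birc2 and the Traf6-pathway ligase Peli1 were the other 3, at 1.25 to 3.28. Traf6 itself, Rbx1, Skp1, Rbck1 and Trim25 were not called in any group, and 1 of 2 Cul1 spots was called in MyD88-/- E. coli (0.48, adjusted p = 0.0453).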

How the data were processed

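Spotted 2-colour arrays were scanned on a GenePix 4000B and handled in GenePix Pro, BASE and GeneSpring, per the labels' protocols. The authors deposited log2 ratios, 1 per spot and array. Background correction, normalization, filter and direction are not given in the sources used here. Array medians lay near 0.

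Values at the lowest level (log2 of 0.01, 1.63% of values) were treated as missing. The mean of a mouse's dye pair gave 16 mouse-level ratios. The dye pairs correlated at 0.256 to 0.71 across spots, all above 0. Genes were named from the platform annotation (11480 spots with 1 symbol, 50 with several, 2342 with none). limma 3.58.1 in R 4.3.3 fitted a coefficient per group (lmFit, eBayes, 2-sided) to spots with values in at least 3 of 4 mice of every group. The p-values of each of 9 comparisons were adjusted over 7325 spots. Precision rests on the number of mice and their spread (median standard error 0.203 in wild-type LPS). The fit was tested on simulated data.

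Members and gene lists were chosen with earlier results of these data known. Named genes are all called members, fixed genes of known role, and called genes of the lists. Members near the threshold, the remaining members by range, and Nedd8 beside Ube2f were added after their values were seen.

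Within a genotype, LPS and E. coli mice carry the same numbers in the labels. The deviations of same-numbered mice from their group means correlated at -0.057 to 0.142, and 2 of 8 correlated best with their own number, so numbers were not used as pairs. Where replicate mice came from separate cultures is not said beyond their numbers, so p-values measure the spread between these samples. Alternatives changed the treatment of the lowest values, array scaling, the limit on mice, dye orientation, the groups fitted, the replicate block, the variance estimate, the spot per gene and the mice included.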

Additional observations from a re-analysis of the deposited data

Results flagged for a closer look

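In 8 of 114 groups of 4 mice, 1 mouse stood apart by Dixon's test at its 95% critical value, which chance alone passes in about 1 group in 20. Psmc3, an ATPase of the cap, had such a mouse in 2 groups. MyD88-/- LPS mouse 2 was at 0.51 with the others at -0.15 to -0.077, and MyD88-/- E. coli mouse 2 was at -0.33 with the others at 0.33. Psmc5, another ATPase, was at -0.50 in wild-type E. coli mouse 2 and at 0.24 to 0.37 in the others. Psmd2 was at -0.52 in wild-type E. coli mouse 1 and at -0.42 to -0.41 in the others, all 4 on the same side of 0. Among the E2s, Ube2d2a was at -0.038 in wild-type LPS mouse 2, with the others at 0.30 to 0.37. Ube2t was at -0.33 in wild-type LPS mouse 4, with the others at 0.10 to 0.18. Of the related genes, Psmb9 was at -0.36 in wild-type LPS mouse 3, with the others at 0.032 to 0.10. Psme1 was at -0.31 in MyD88-/- LPS mouse 3, with the others at 0.32 to 0.41.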

How the results depend on the processing

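None of the 19 calls among members changed sign under any alternative run. Of these 13 were lost without 1 mouse of their own group, and the 4 of Ube2f were never lost. Counts of called proteasome spots in wild-type LPS became 2 with centred, with scaled and with both-orientation values, 0 on unswapped arrays and 3 with single arrays and a dye term. In MyD88-/- LPS they became 2 on unswapped arrays and 0 in a fit on that group alone, and in wild-type E. coli 0 in such a fit. In MyD88-/- E. coli they became 1 on unswapped arrays, 2 with both orientations, 2 with a dye term and 1 in a fit on the group alone. The genotype difference for E. coli gave 1 proteasome call, Psmd2, with a dye term. Counts of called E2 spots became 5 in wild-type LPS and 6 in wild-type E. coli on unswapped arrays, and 1 in each in fits on the group alone, as in MyD88-/- LPS. In MyD88-/- E. coli they became 2 with centred, with scaled, with both-orientation values, with all 4 mice needed or with a dye term, and 3 on unswapped arrays. Leaving out a mouse gave 0 to 1 proteasome and 1 to 4 E2 calls in wild-type LPS, 1 to 1 and 1 to 3 in MyD88-/- LPS, 0 to 4 and 2 to 4 in wild-type E. coli, 0 to 4 and 1 to 2 in MyD88-/- E. coli, and 0 to 0 in each difference. The cause of these changes was not tested. With mouse number as a replicate block the stimulus differences and the interaction had 0 calls in both sets, as without it. The block was run for these comparisons and changed no call of a member in them. Depth cannot be read from ratios, and changes well under the interval widths given were not detectable.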
